A study of Macaca mulatta with 5 samples.

Results

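The islands lower in the infant are 714 stretches of H3K4me2-marked chromatin in rhesus macaque prefrontal cortex whose share of the island reads at 0.4 yr was at most 1/1.5 of the share at 9, 22 and 26 yr. They were chosen from the 35494 autosomal islands with at least 100 reads over the 4 H3K4me2 libraries, out of 58414 autosomal and 59189 deposited islands. An island is a run of enriched windows that the authors called once, over the pooled H3K4me2 libraries. The level used throughout, RPM, is reads in the island per 1000000 reads in all autosomal islands of that library, so a value compares an island with the other islands of the same animal. These levels chose the islands, and the ratios between the infant and the older animals are therefore given as a description, with no test.

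The series profiled untreated prefrontal cortex of animals aged 0.4, 9, 22 and 26 yr, with 1 animal and 1 library per age, by chromatin immunoprecipitation for H3K4me2, histone H3 dimethylated at lysine 4. A further library of unenriched chromatin (the input) came from 7 animals pooled, among them the 4 used for H3K4me2. The labels name no strain, genotype or sex. Ages and animals cannot be told apart, since there are no replicates. All intervals given here are at 95%. Those of ratios and of summed reads cover counting error only. Those of shares of islands take islands as independent draws, although all come from the same 4 libraries. No interval covers differences between animals. The tissue is bulk cortex, in which fewer cells carrying the mark and less mark per cell cannot be told apart. The infant library had the fewest autosomal island reads, 2074468 against 2881458 to 3589888 in the older animals, and the smallest share of its autosomal reads in islands, 24.7% against 30.6% to 33.8%.

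Methylation of lysine 4 on histone H3 is written by the SET1 and MLL family of methyltransferases and removed by demethylases such as LSD1 and the KDM5 enzymes. The dimethylated form marks promoters and enhancers, both active and poised, and is often used to chart regulatory elements that are open in a cell type. The prefrontal cortex of primates matures long after birth, with continued myelination, growth of glia and remodelling of synapses. The gene, exon or promoter under each island, and its base sequence, were not analysed here, and islands are named by their position in the build of the deposited files, which is not given in the sources used here.

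Islands meeting the rule made up 2.01% of those with at least 100 reads. With 9 yr in place of the infant as the low library the same rule found 331 islands (0.933%), with 22 yr 511 (1.44%) and with 26 yr 326 (0.918%). The opposite rule, an infant level at least 1.5 times that of each older animal, found 919 islands (2.59%). The infant was thus the low library more often than each older animal was. It is also the library with the fewest island reads, and the part of counting error in this excess was not tested. In 341 of the 714 islands the counting interval of the older over infant ratio lay above 1 for all 3 older libraries, a condition met by 1.98% of all islands with at least 100 reads. These intervals use the reads that chose the islands. The rule thus raises the share among the members, and nothing is read from the difference.

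**Figure D1:**
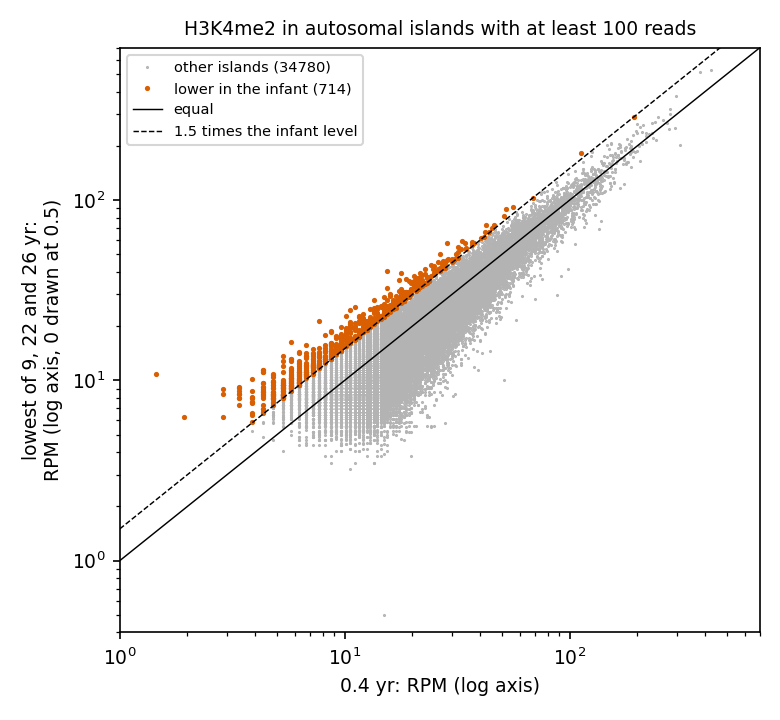
Level at 0.4 yr (x axis) against the lowest of the levels at 9, 22 and 26 yr (y axis), in RPM on log axes, with 1 point per autosomal island with at least 100 reads. The 714 islands lower in the infant lie on and above the dashed line of 1.5 times the infant level, and most lie close to it.

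The median level over the 714 islands was 9.64 RPM in the infant and 18.0, 18.5 and 18.1 RPM in the 9, 22 and 26 yr animals. Over all islands with at least 100 reads the medians were 18.3 RPM in the infant and 17.7, 17.8 and 17.5 RPM in the older animals. By share of island reads per island, then, the older animals held about the level of a typical island and the infant stood below it. This share is not divided by width, and the members were narrower, with a median of 2600 bp against 3600 bp. Which side departs from the typical island depends on the measure, as the values divided by each island's own input reads, given further on, show. Scaling a whole library by a single factor leaves this comparison within the library unchanged. The members were also denser, with a median of 83.8 reads per kb over the 4 libraries against 57.2 for all such islands. Behind these levels were a median of 20.0 reads per island in the infant, and 52.0, 63.5 and 65.0 reads in the older animals. Summed, the 714 islands took 0.889% of the infant's island reads (exact Clopper-Pearson interval from 0.876 to 0.901). In the 9 yr animal they took 1.63% (from 1.61 to 1.64), in the 22 yr animal 1.63% (from 1.62 to 1.64) and in the 26 yr animal 1.62% (from 1.61 to 1.64). The summed reads were 2.42-fold over input in the infant and 6.14, 7.10 and 6.87-fold over input in the older animals, scaled by reads in 10 kb genome bins free of islands (background reads). The infant was low on both scales, but the rule fixes this. Scaling by background reads uses the same island reads and raises the ratio of each older animal to the infant by a constant factor.

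Most ratios were modest. The median log2 ratios of the 9, 22 and 26 yr animals to the infant were 0.84, 0.86 and 0.84, against -0.01, 0.00 and 0.00 over all islands with at least 100 reads. In 67 islands every older animal was at least 2 times the infant level. In 3 islands, on chromosomes 16, 7 and 2, every older animal was at least 3 times the infant level. At the threshold itself the list runs on without a break, with 233 members less than 5% above the ratio of 1.5 and 345 other islands less than 5% below it. Just inside lay chr14:72153201-72156000 with levels of 23.1, 42.3, 34.7 and 42.1 RPM from youngest to oldest and chr6:98999001-99003000 with 28.0, 42.0, 58.3 and 45.1. Just outside lay chr11:119056801-119059200 with 11.6, 17.4, 19.2 and 19.2, chr19:2409201-2411200 with 5.78, 8.68, 9.04 and 11.7, and chr17:80889401-80891600 with 5.78, 8.68, 9.04 and 8.91. The third island just inside is the widest member, described further on.

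The island farthest from equality was chr16:15521001-15523000, 2000 bp wide. From youngest to oldest it held 3, 35, 37 and 46 reads, and the input held 9. Its level was 1.45 RPM in the infant and 10.8 to 12.8 in the older animals, whose values lay close together. The log2 ratio to the infant was 3.07 in the 9 yr animal (exact counting interval 1.405 to 5.416), 2.90 in the 22 yr animal (1.24 to 5.24) and 3.15 in the 26 yr animal (1.51 to 5.48). Within the island both 1 kb windows were low in the infant, with 1 and 2 reads against 14 to 23 in each window of each older library. Reads outside islands within 20 kb numbered 109, 150, 156 and 161 from youngest to oldest (204 in the input). In the 1 kb windows next to the island the infant held 0 reads on each side, against 3, 4 and 5 before it and 1, 7 and 1 after it in the older animals. Of the 8 windows of 1 kb nearest to the island on both sides, 6 met the ratio of the rule, on few reads.

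The next islands by ratio were of several kinds. At chr7:57835201-57836400 the reads were 4, 18, 31 and 57 from youngest to oldest, with levels of 1.93, 6.25, 9.04 and 15.9 RPM. The level rose from each animal to the next older one, and reads outside islands within 20 kb did the same (30, 80, 123 and 136, with 150 in the input). Scaled by background reads, the infant's flanks lay below the input, so the low infant value was not confined to the island. At chr2:138801001-138802000 the reads were 6, 30, 41 and 32, and the levels of the older animals, 10.4, 11.96 and 8.91 RPM, had no order in age. Its flanks were nearly level in read number, with 119 reads at 0.4 yr and 108 to 130 in the older animals. At chr14:9676801-9678600, with 6, 36, 30 and 30 reads, and at chr20:944401-946600, with 12, 91, 56 and 67, the 9 yr animal was highest. The chromosome 20 island had levels of 5.78, 31.6, 16.3 and 18.7.

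The island chr15:106867001-106869800 held 16, 63, 73 and 84 reads, and levels of 7.71, 21.9, 21.3 and 23.4. Its log2 ratios were 1.503 (0.69 to 2.39), 1.47 (0.67 to 2.35) and 1.60 (0.82 to 2.47), and the 3 older animals differed from each other by far less than from the infant. Around it, reads outside islands within 20 kb numbered 28, 72, 50 and 83 (62 in the input), so the flanks were also lowest in the infant. The last 4 of the 10 largest ratios had 7 to 9 reads in the infant. They were chr9:118213801-118215800 with 7, 33, 33 and 33 reads, chr3:1729801-1731800 with 7, 26, 31 and 36, chr17:1290001-1292000 with 8, 39, 35 and 42, and chr10:89977401-89979600 with 9, 33, 46 and 46. In each of these the infant stood apart and the older animals lay together.

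**Figure D2:**
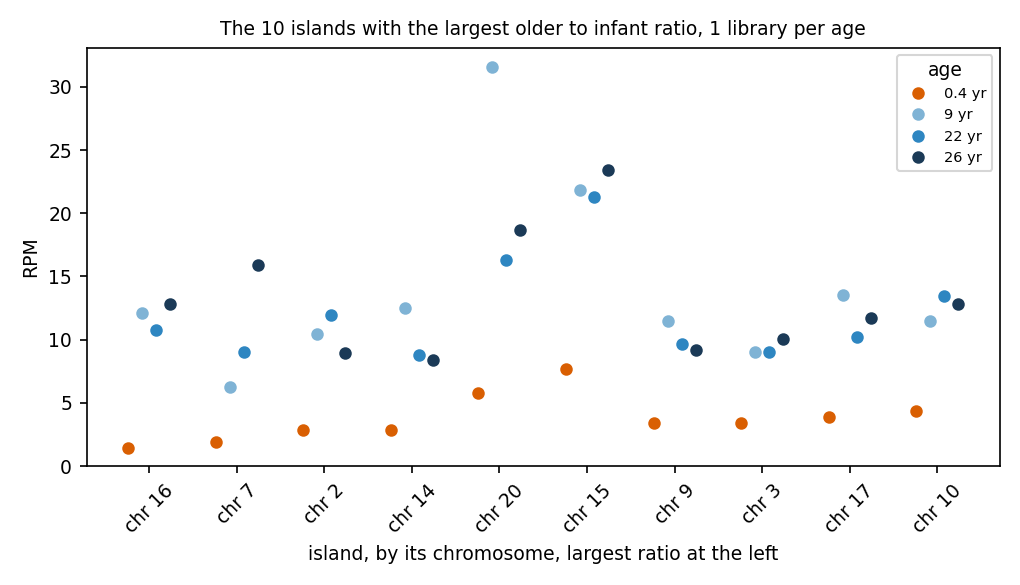
Level in RPM (y axis, from 0) of the 10 islands with the largest lowest-older over infant ratio (x axis, each named by its chromosome), with 1 point per library and age. The infant point is the lowest in each, from 1.45 to 7.71, and the order of the older animals differs between islands.

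Few islands were so far from the infant level that counting error left the whole interval beyond the threshold. In 5 of the 714 islands the interval lay above a ratio of 1.5 for all 3 older animals. Any island that meets this also meets the rule, so the count over all 35494 islands with at least 100 reads is the same 5. The like count with an older library in the low place is not given here. These 5 were picked out after their values were seen, and the chromosome 16 and 15 islands described above are among them. The others had more reads. The island chr10:85182401-85186600 held 32, 144, 138 and 148 reads from youngest to oldest, chr19:60609801-60613400 held 37, 120, 135 and 151, and chr7:63887601-63893200 held 59, 177, 198 and 236. Their log2 ratios ran from 1.38 to 1.70, from 1.14 to 1.24 and from 1.02 to 1.21. In each of these 3 the older animals lay close to one another.

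Low in the infant did not in general mean unmarked. Scaled by background reads, the median enrichment over input of the 714 islands was 2.49-fold in the infant, near the 2.62-fold of all islands with at least 100 reads. In the older animals it was 6.40, 7.63 and 7.32-fold, above the 3.56, 4.06 and 3.93-fold of all islands. Measured against unenriched chromatin, the islands were thus near average in the infant and above average in the older animals, unlike by share of island reads. These values share the reads that chose the islands and carry no test. In 274 of the 714 islands (38.4%) the infant's counting interval over input reached down to 1 or lower, against 14.9% of all islands with at least 100 reads. In those islands no enrichment was detectable in the infant at this depth.

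The strongest islands by the authors' fold over input show the other case, a marked infant. The island chr18:41178401-41180000, with an authors' fold of 19.8, held 22, 49, 81 and 80 reads from youngest to oldest and 4 input reads. It was 11.05-fold over input in the infant (3.75 to 44.1) and 24.6, 39.4 and 36.1-fold in the older animals. The island chr2:102124001-102125200, with an authors' fold of 18.3, held 16, 35, 48 and 59 reads against 3 in the input. Here too the infant was over input (10.7-fold, interval 3.07 to 57.4), and the older animals were higher. In chr4:158286201-158286800, 600 bp wide, the reads were 8, 24, 26 and 44 with 0 in the input, which sets its authors' fold of 141 on no input read. The islands chr13:48282801-48283600 (10, 24, 31 and 45 reads) and chr7:168838001-168838800 (9, 24, 36 and 33 reads) each had 1 input read. In each of these 5 islands the counting interval of the 9 yr over infant ratio included 1.

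At the other end were islands with dense input. The island chr2:189746001-189746600 had 28.3 input reads per kb, where the typical island with at least 100 reads had 7.71 (median), and held 8, 19, 42 and 45 reads from youngest to oldest. The islands chr19:42325401-42326600 (13, 44, 44 and 56 reads) and chr1:141783401-141784200 (12, 36, 40 and 50 reads) had 24.2 and 23.8 input reads per kb. In all 3 the infant was within counting error of the input, at 0.945, 0.900 and 1.27-fold. Dense input was not a trait of the whole list. The median was 7.06 input reads per kb, and the islands with the least input held the largest share of members. With the islands in 4 classes of near equal size by input density, in the lowest class 3.17% were lower in the infant (2.82 to 3.56) and in the highest class 1.47% (1.23 to 1.74), against 2.01% overall.

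The islands lower in the infant were narrower than islands in general under the island scaling that chose them. Their median width was 2600 bp, against 3600 bp over all islands with at least 100 reads. With background reads as the scale the same rule selects 9734 islands, whose median width is also 3600 bp. Of islands up to 2 kb wide 5.46% were members (exact interval 4.78 to 6.19), of those between 2 and 5 kb 2.04% (1.85 to 2.24), of those from 5 to under 10 kb 0.693% (0.528 to 0.893), and of those of 10 kb or more 0.208% (0.0568 to 0.533). The share of members was 2.23% with 100 to under 150 reads, 2.01% with 150 to under 200, 2.23% with 200 to under 400 and 1.3% with 400 or more, so it varied less with read number than with width. The islands higher in the infant fell more steeply with read number, from 5.49% to 0.159% over the same classes.

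The share of islands lower in the infant went up with the strength of the island before background was taken off, and down afterwards. In 4 classes of near equal size by the authors' fold, the share of members was 0.496% (0.361 to 0.665), 0.949% (0.758 to 1.17), 2.60% (2.28 to 2.95) and 4.0% (3.60 to 4.43) from the weakest to the strongest. The islands higher in the infant ran the other way, at 6.18%, 3.42%, 0.720% and 0.0451%. The rule's own reads enter that fold, and the infant library had the largest share of reads outside islands. After subtraction of input scaled to background, the same rule found 2788 islands (7.85%), and the shares became 11.9%, 8.28%, 7.20% and 4.02% from the weakest to the strongest class. The order of these shares was therefore turned round by the subtraction. The islands higher in the infant still went down with strength, at 12.5%, 7.75%, 2.35% and 0.687%. In the weakest class 1058 islands were lower and 1113 higher in the infant after subtraction, and in the strongest class 357 were lower and 61 higher. The balance in the strongest class thus lay towards islands lower in the infant with and without subtraction. Of the 714 members, 664 still met the rule after subtraction, among them all 359 of the 3 weaker classes and 305 of the 355 in the strongest.

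**Figure D3:**
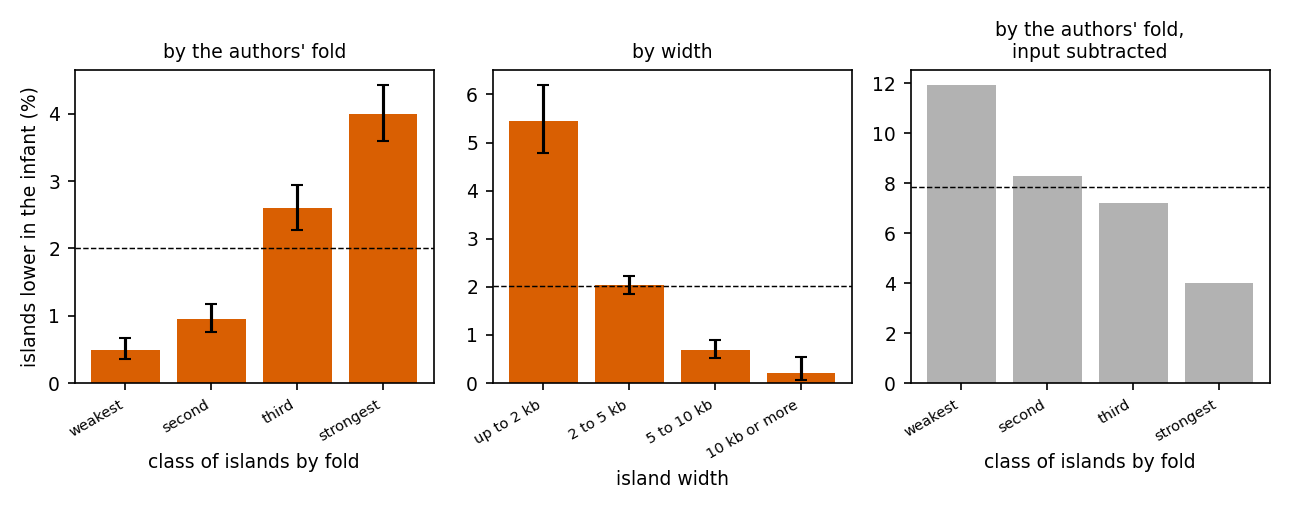
Share of islands lower in the infant (y axis, percent of each class, islands under 100 reads left out) by class of the authors' fold (left), by width (middle), and by class of the authors' fold after input was subtracted (right). Bars start at 0, error bars at the left and middle are exact 95% binomial intervals and the dashed lines are the shares over all classes, 2.01% at the left and middle and 7.85% at the right.

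Reads summed around the island centres show the shape of the signal. The rule used the reads inside the islands, so the difference at the centre is fixed by it. At the centre the 714 islands stood at 2.95-fold over input in the infant, and at 7.71, 9.37 and 8.74-fold in the older animals. About 2 kb away they stood at 1.69, 2.97, 2.91 and 3.05-fold. For all islands with at least 100 reads the centre stood at 3.24, 4.66, 5.64 and 5.50-fold. At 4900 bp before the centre, where reads of other islands are included, the members stood at 1.64, 2.55, 2.20 and 2.37-fold and all islands at 1.76, 2.295, 2.48 and 2.37-fold. The middle 50% of the members' width held 55.7% of their reads in the infant and 57.5%, 59.2% and 57.7% in the older animals (50.7% for the input). The infant's reads were thus spread a little more evenly across the island, as they were over all islands with at least 100 reads (54.0%, 55.2%, 56.1% and 56.0%). These shares include background reads, which make up a larger part of the infant's reads and lie near the share of the input. They therefore cannot show that the mark itself was flatter in the infant.

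**Figure D4:**
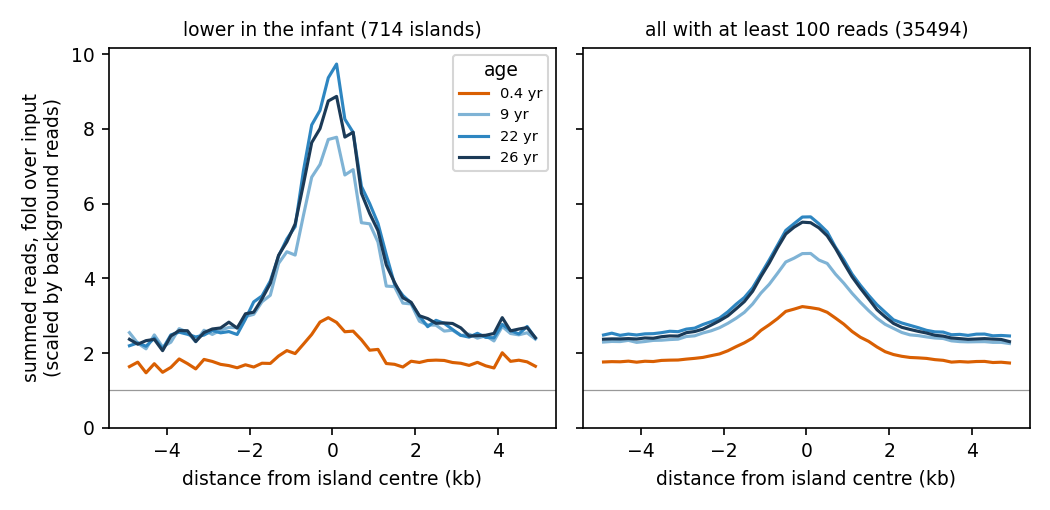
Summed reads around island centres as fold over input, scaled by background reads (y axis, from 0), against the distance from the centre in kb (x axis), with 1 line per age, for the 714 islands lower in the infant (left) and for all 35494 islands with at least 100 reads (right). At the centre the infant line is at 2.95 at the left and 3.24 at the right, and the 22 yr line at 9.37 and 5.64.

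Outside the islands the medians were near those around other islands. Reads outside islands within 20 kb, scaled by background reads and with a pseudocount of 0.5, had median log2 ratios to the infant of 0.27, 0.21 and 0.21 in the 9, 22 and 26 yr animals. Around all islands with at least 100 reads the medians were 0.23, 0.22 and 0.18. With all autosomal reads as the scale the members' flank medians were 0.11, -0.0165 and 0.005, so the direction at 22 yr turned, and those around all islands 0.06, -0.0049 and -0.0268. The flanks were lowest in the infant for 63.7% of the members and for 62.3% of all islands. The gap to other islands was largest in the first kb beyond the edge, with summed reads 1.385, 1.336 and 1.338 times the infant's. Around all islands with at least 100 reads they were 1.248, 1.241 and 1.212 times the infant's. From 5 to 10 kb out the values were 1.19, 1.16 and 1.16 against 1.16, 1.16 and 1.12.

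The members were scattered over the genome. All 20 autosomes held some, from 1.21% of the islands on chromosome 11 (0.762 to 1.83) to 3.02% on chromosome 18 (1.80 to 4.73). Within 2 Mb of a chromosome end the share was 1.87%, and 10 Mb or more inside it was 2.04%. For 19 of the 714 (2.66%, interval 1.61 to 4.12) the nearest island with at least 100 reads was also a member, against an overall share of 2.01%. The interval takes members as independent, which neighbouring members are not, so it cannot decide whether members cluster. The median gap to that nearest island was 7000 bp, against 4800 bp over all such islands. In order along the chromosomes, 673 members stood alone, 19 pairs were next to each other, and 1 run held 3.

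The islands next to a member leaned the same way without reaching the rule. For the 260 other islands under 2 kb from a member the median log2 ratios to the infant were 0.17, 0.09 and 0.11 in the 9, 22 and 26 yr animals, and 40.4% were lowest in the infant. For the 754 at 5 to 20 kb the medians were 0.09, 0.01 and 0.01, and 33.2% were lowest in the infant. For the 14817 at 1 Mb or more they were -0.04, -0.02 and 0.02, with 27.6% lowest in the infant. At 2 to 5 kb 37.5% were lowest in the infant and at 20 to 100 kb 29.8%, against 27.8% of all islands that are not members. The lean was thus small and weakened step by step with distance.

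The run of 3 lay near the end of chromosome 16. The islands chr16:78145801-78148200, chr16:78170401-78172800 and chr16:78176601-78178400 span 32600 bp. From youngest to oldest they held 13, 36, 34 and 35 reads, then 15, 44, 43 and 46, then 22, 76, 100 and 88. In each of the 3 the infant was low and the older animals lay together. The third was the strongest, at 2.95-fold over input in the infant (1.46 to 6.11) and 10.2, 12.97 and 10.6-fold in the older animals. The pairs with the shortest span from end to end were chr16:52385201-52387000 (17, 49, 50 and 74 reads) with chr16:52387601-52389200 (23, 51, 67 and 60), and chr8:42622401-42624600 (13, 41, 39 and 57) with chr8:42625201-42627000 (14, 32, 43 and 37). In each of these pairs 600 bp separates the islands, where the authors' calls joined windows up to 400 bp apart.

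Only 4 members were 10 kb wide or more, and the widest show where along an island the infant was low. The island chr15:98582001-98606400 spans 24400 bp and held 402 reads in the infant and 1013, 997 and 1168 in the older animals, the most of any member. It met the rule barely, with log2 ratios of 0.86 (0.69 to 1.03), 0.59 (0.42 to 0.76) and 0.75 (0.58 to 0.91). In the first 2 kb window the infant's 7.23 RPM was nearly equal to the 7.58 and 7.24 RPM of the 22 and 26 yr animals, while the 9 yr animal stood at 11.1 RPM. As a ratio the difference was widest from 12 to 14 kb, where the infant held 22 reads (10.6 RPM) and the older animals 130, 92 and 113 (45.1, 26.8 and 31.5 RPM). Only the 3 windows from 8 to 14 kb met the rule on their own.

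The island chr6:425201-447200 spans 22000 bp and held 232, 546, 627 and 743 reads from youngest to oldest, with an authors' fold of 2.55. The 2 kb window from 8 to 10 kb was closer to level, at 23.1 RPM in the infant and 25.7, 25.1 and 30.9 in the older animals, and it was the window with the most input reads, 42. Low windows lay on both sides of it. From 12 to 14 kb the infant's 10.1 RPM lay beside 9.72 in the 9 yr animal, below the 15.2 and 13.9 of the others. From 10 to 12 kb the infant held 9 reads and the older animals 46, 38 and 43, and at the far end, from 20 to 22 kb, 38 against 108, 110 and 147. The smaller member chr6:422201-424600 lies 600 bp before it, with 13, 46, 40 and 39 reads. The island chr19:3901801-3913000 spans 11200 bp and held 116, 273, 360 and 329 reads. Its peak at 6 to 8 kb had 36 reads in the infant and 87, 128 and 118 in the older animals, and the window from 8 to 10 kb had 10, 10, 8 and 8. The other members with most reads were chr12:95547801-95558600 with 142, 406, 354 and 491 reads and chr14:25759801-25767000 with 108, 280, 326 and 319.

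**Figure D5:**
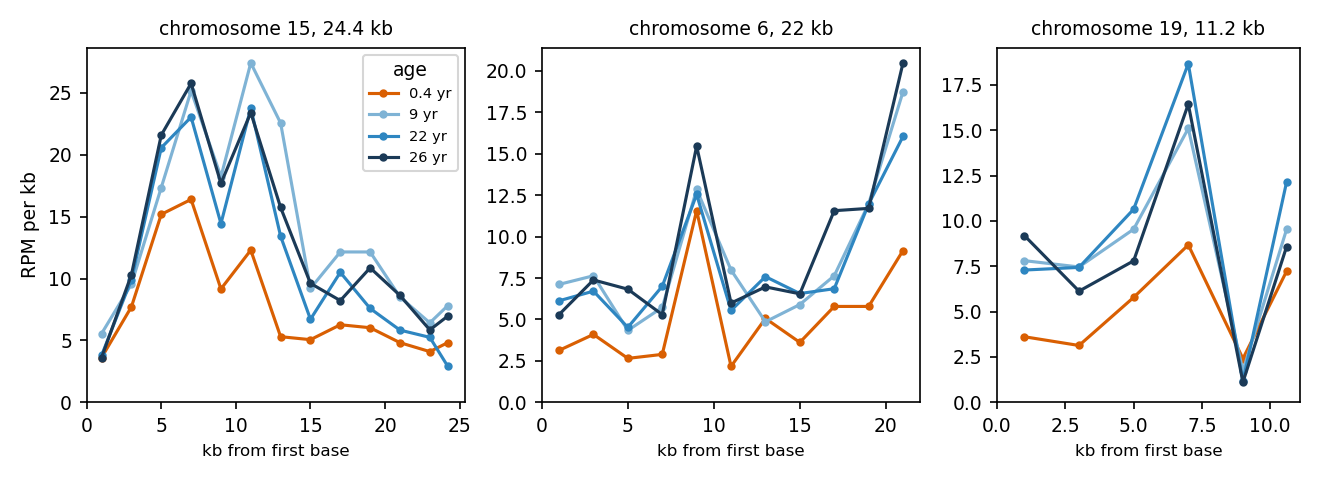
RPM per kb (y axis, from 0) in consecutive 2 kb windows along the 3 widest islands lower in the infant (x axis, kb from the island's first base), with 1 line per age and a shorter last window at chromosomes 15 and 19. The infant line meets those of 22 and 26 yr in the first window on chromosome 15, comes close to the others at 8 to 10 kb on chromosome 6, and lies above them at 8 to 10 kb on chromosome 19.

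Among the 3 older animals the members had no shared order. The 9 yr animal was the highest in 229 islands (32.1%), the 22 yr animal in 263 (36.8%) and the 26 yr animal in 222 (31.1%), against 32.7%, 35.1% and 32.3% over all islands with at least 100 reads. Levels rose from 9 to 22 to 26 yr in 117 members (16.4%), against 15.8% of all such islands. Both shares lie near the background. In 374 members (52.4%) the 3 older animals lay within 1.2-fold of each other, against 29.3% of all islands, but the rule sets a floor under all 3 and so favours such islands. A level at 26 yr at least 1.5 times that at 9 yr was found in 19 members (2.66%, against 4.5% of all islands) and the reverse in 16 (2.24%, against 4.67%).

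Single islands departed from this evenness. At chr20:23329001-23332800 the reads were 17, 80, 56 and 49 from youngest to oldest, and the 9 yr level of 27.8 RPM stood above the 16.3 and 13.6 RPM of the other older animals. The island chr20:2129201-2131400 had 13, 44, 33 and 34 reads, also highest at 9 yr. The 22 yr animal was highest at chr10:20191801-20194800, with 12, 29, 73 and 35 reads, at chr20:85760401-85762400, with 9, 20, 52 and 32, and at chr19:63475001-63476000, with 10, 23, 47 and 30. The 26 yr animal was highest at chr9:646401-647200, with 6, 18, 26 and 56 reads, at chr1:227328001-227329000, with 12, 30, 30 and 69, and at chr1:112748001-112749400, with 9, 21, 23 and 48. In these islands 1 older animal stands off from the other 2 as far as the infant does, or nearly so.

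A linear trend in age was fitted to all autosomal islands with edgeR's quasi-likelihood test. The rule used the infant against the older animals, so the counts for the members are printed beside those for all islands and nothing is read from them. With TMM scaling, which centres the bulk of islands on no change, 0 of the 714 members passed at an adjusted p of 0.05, as did 0 of the 58049 islands tested (0.0%). At an unadjusted p under 0.05 edgeR gave 319 rising and 0 falling members, against 3.51% rising and 3.42% falling of all islands. DESeq2 also called 0 members (0.0% of all islands), and its unadjusted p was under 0.05 for 100 rising and 0 falling members, against 0.582% and 0.322% of all islands. The smallest edgeR adjusted p among the members was 0.207, at chr7:57835201-57836400. With libraries scaled to background reads, edgeR called 153 members as rising and 0 as falling, against 1.18% rising and 0.00172% falling of all islands.

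The trend over the 3 older libraries alone does not use the infant, and it has 1 residual degree of freedom. In it edgeR with TMM called 0 members, against 0.0121% rising and 0.00519% falling of the 57851 islands tested. The unadjusted p was under 0.05 for 4 rising and 9 falling members, against 1.75% and 1.65% of all islands. DESeq2 called 0 members, with 0 in either direction at the unadjusted level, against 0.0445% and 0.0205% of all islands. No change with age among the older animals was thus detected in the members. The rule favours islands that are even across these 3 libraries, so the lack of calls cannot show that the members are stable with age.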

How the data were processed

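Each library was deposited as aligned reads of 35 bases, and the authors' island table covers the whole series. Islands were called by the authors with SICER, per the submitters' processing notes, at 200 bp windows, 400 bp gaps and an FDR of 0.001, per the file's name. For the aligner and build, the sources used here give nothing. No header names the table's columns, so each was compared with the reads. The deposited pooled count matched the non-repeated H3K4me2 reads to within 2 for 98.5% of islands, and the deposited input count matched exactly for 86.6%. The counts given here keep repeated reads, and the counting intervals take all reads as independent. The deposited ratio (the authors' fold over input) served to describe and group islands, and the deposited p-values were not used. The read positions, deposited in columns of their own kind, were assigned to islands with each 5' end shifted by 75 bp downstream.

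Background reads are those in 10 kb bins that touch no island. Counting intervals of ratios are exact conditional binomial intervals at 95%, and those of shares are exact Clopper-Pearson intervals. Reads carry no molecular identifiers. Intervals of ratios and of summed reads cover counting error only, and those of shares of islands take islands as independent draws. Subtraction took off input reads scaled by background reads and left at least 1 read. RPM values are reads in an island per 1000000 autosomal island reads. Trends were fitted with edgeR 4.0.16 in R 4.3.3 (quasi-likelihood test, age in years as a number, minimum count 10, Benjamini-Hochberg adjustment), with DESeq2 1.42.0 as an alternative. The 4 libraries leave 2 residual degrees of freedom. The selection and the trend were also run on simulated counts. Those for the selection held larger drops and more reads than most members, so that run does not show how the rule performs on islands like the members. Tables were handled in Python 3.11.15 with pandas 2.3.3 and numpy 2.4.6, intervals came from scipy 1.17.1 and plots from matplotlib 3.10.9.

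The members and lists were chosen with earlier results of these data known. Islands named are the 10 with the largest ratio of the lowest older level to the infant level, the 5 with most reads, the 3 widest, the 5 with the highest authors' fold, the 3 with the densest input, those 3 just inside and 3 just outside the threshold, for each older age the 3 in which it leads most, and the 3 largest runs. Marker genes could not be placed on the files' build and were not analysed here. The rule covers autosomes, and X islands are given apart.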

Additional observations from a re-analysis of the deposited data

Results flagged for a closer look

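The X chromosome lies outside the rule, and its islands were scaled to X island reads. Of 492 X islands with at least 100 reads, 8 were lower in the infant by the same ratio (1.63%) and 7 were higher. The 8 islands held 89 reads in the infant, 282, 344 and 371 in the older animals and 62 in the input, which is 2.88-fold over input in the infant and 9.12, 10.8 and 10.8-fold in the older animals. They are listed because no comparison above used the X chromosome and these islands met the ratio of the rule there, with signal over the input. That ratio fixes the difference between the infant and the older animals, and the share of 1.63% lies near the autosomal 2.01%.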

How the results depend on the processing

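The number of islands lower in the infant, 714, depended on the ratio, the minimum and above all the scaling. It was 1408 with at least 50 reads, 358 with at least 200, 2831 with a ratio of 5/4 and 67 with a ratio of 2. It was 4861 with all autosomal reads as the scale, 9734 with background reads and 2788 after subtraction of input. Using 2 of the older libraries gave 1002 to 1286. TMM gave 1069, which holds all 714, and the read shift gave 709 and 703, of which 625 each are among the 714. Requiring counting intervals beyond 1 gave 702, of which 341 are shared. The median width of 2600 bp became 3400 with at least 200 reads, where the median of all such islands is 5000 bp. It became 2000 with a ratio of 2 and 3600 with background reads, and the latter equals the median of all islands with at least 100 reads. The median of 7.06 input reads per kb became 7.50 with a ratio of 2 and 7.34 with background reads. The share next to another member, 2.66%, was 0.0% with a ratio of 2, where 0.189% of islands are selected, and 34.3% with background reads, where 27.4% are. Flank medians at 9, 22 and 26 yr were 0.32, 0.25 and 0.28 within 5 kb, and 0.11, -0.0165 and 0.005 with all autosomal reads, so the 22 yr value turned negative. The trend called 153 members with background reads. The cause of these shifts was not tested, apart from the stricter or looser limits, which by construction keep fewer or more islands. No paired analysis was possible because each age has 1 library. With a median of 20.0 infant reads per member, depth limits every single ratio.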
